A study of Mus musculus with 4 samples.

Results

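The 45 genes described here make and use glutathione and thioredoxin, the main thiol antioxidants of the cell, or work beside them. They were taken from a list of gene symbols: every probe on the array that carries one of these symbols and is no control spot was collected, and the brightest of a gene's probes on the 4 arrays stood for the gene. All 45 symbols were found, out of 20655 gene names measured in the mouse prefrontal cortex, and all 45 genes were well above background on all 4 arrays.

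Glutathione is built from glutamate, cysteine and glycine. Glutathione peroxidases use it to reduce peroxides, glutathione transferases couple it to reactive compounds, and glutathione reductase recycles it with NADPH. Thioredoxin and its reductases hand electrons to the peroxiredoxins, which remove hydrogen peroxide, while superoxide dismutases and catalase act on superoxide and hydrogen peroxide without thiols. Many of these genes can be induced by the transcription factor NRF2, which KEAP1 holds back in unstressed cells. Glyoxalase 1, the enzyme that the Glo1 gene encodes, also depends on glutathione, which it uses to detoxify methylglyoxal, a by-product of sugar breakdown.

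Groups combined diet and genotype in 3-month-old mice of the strain B6J. Mice were either wild-type or Glo1 heterozygous, and from weaning on postnatal day 21 they ate a starch diet or a sucrose diet for about 70 days. The wild-type starch mice were the study's control, and the labels used here name neither the Glo1 allele nor the sex. In each of the 4 groups the total RNA of 3 mice was mixed, 200 ng was labelled with the dye Cy3, and the mixture was hybridised to 1 one-colour Agilent array, so each group has 1 value per gene and no spread between mice. No p-value or SD between samples is therefore given, and every difference below is a difference between single arrays.

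A level is the signal of a probe as a multiple of the 75th percentile of its array, which lay at 1780 to 1929 intensity units on the 4 arrays. Changes are differences of log2 levels, sucrose minus starch or Glo1 heterozygous minus wild-type, and a change of 1.5-fold (0.58 on the log2 scale) was the size used for counting. Between 77.6% and 80.2% of spots were well above background on an array and 0 were saturated. Probes printed 10 times on each array gave the error between spots within an array. The SD of a log2 difference between single spots was 0.07 for probes in the brightest quartile of levels (289 probes). It was 0.11, 0.12 and 0.13 in the dimmer quartiles, from 4, 4 and 2 probes. It leaves out the differences between mice, RNA preparations, labellings and hybridisations. Of the 45 genes, 21 lay in the brightest quartile of all gene levels, 15 in the next, 8 in the next and 1, Ggt1, in the dimmest.

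The labelled tissue was checked by its markers. All 7 listed genes of cortical excitatory neurons were measured on all 4 arrays, with summed levels of 62.7 to 86.0. Markers of other cells were unequal between the pools. The summed level of 9 choroid plexus genes was 70.7 in the pool of heterozygous sucrose mice, and 0.933 (wild-type starch), 2.18 (wild-type sucrose) and 0.882 (heterozygous starch) in the others. That of 7 red blood cell genes was 277 (wild-type starch), 135 (wild-type sucrose), 235 (heterozygous starch) and 152 (heterozygous sucrose), and that of 9 striatal neuron genes 29.4, 47.4, 43.8 and 25.4 in the same order. In RNA from whole tissue, fewer cells of a type and less RNA per cell cannot be told apart. In that order Glo1 itself had levels of 4.04, 5.53, 2.74 and 3.04, lower in the arrays labelled heterozygous on both diets.

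Most of the antioxidant genes had nearly the same level on all 4 arrays. The ratio of a gene's highest to its lowest array had a median of 1.15 over the 45 genes, against 1.20 over all genes and 1.15 over genes at or above the median level, a class that holds 36 of the 45. Its log2 was under 0.32 for 36 of the 45 genes (80%), against 60.5% of all genes and 80.9% of genes at or above the median level. A ratio of 1.5 or more was found for 3 genes, where 14.7% of all genes and 4.09% of genes at or above the median level had one. Those were Ggt1 at 2.48, Gpx8 at 1.62 and Ggt7 at 1.56. The narrow range of the antioxidant genes was thus near that of other well-expressed genes.

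**Figure D1:**
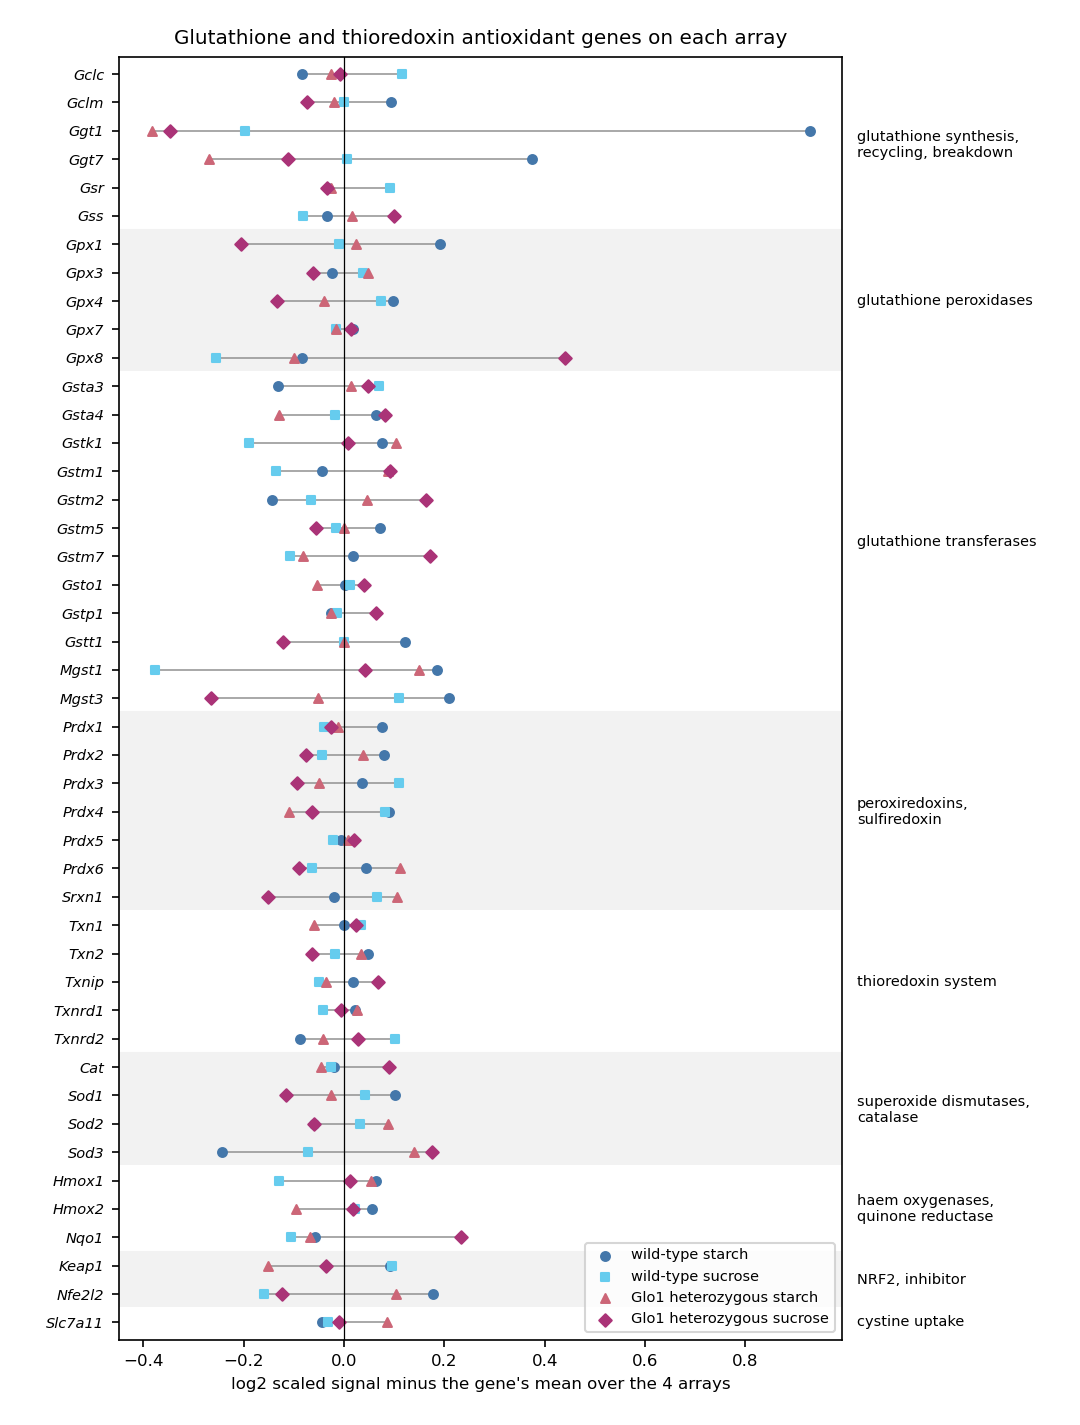
Log2 level of each of the 45 genes minus the mean of that gene over the 4 arrays (horizontal axis), with genes grouped by role (vertical axis) and 1 symbol per array, 1 array per group, joined by a line from the lowest to the highest. Ggt1, Ggt7 and Gpx8 have the longest lines, with highest-to-lowest ratios of 2.48, 1.56 and 1.62.

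**Figure D2:**
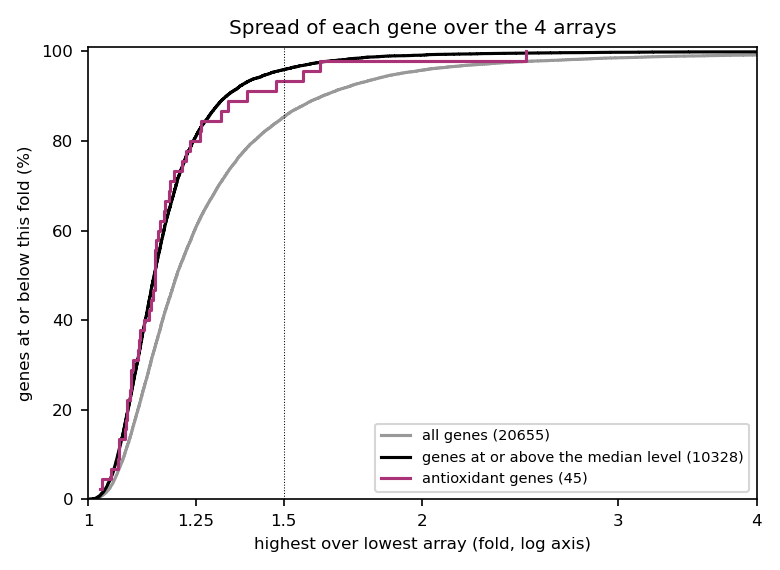
Percent of genes (vertical axis) whose ratio of highest to lowest array is at or below the value on the horizontal log axis, for the 45 antioxidant genes, all genes, and genes at or above the median level, with a dotted line at 1.5-fold. The medians are 1.15, 1.20 and 1.15, and the antioxidant curve lies close to that of genes at or above the median level.

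Few of the antioxidant genes differed by 1.5-fold or more between the diets. With sucrose, 1 of 45 was lower by that much in wild-type mice, Ggt1, and 0 were higher, where 3.53% of all genes were lower and 2.4% higher. In heterozygous mice 0 of 45 were past 1.5-fold, where 2% of all genes were lower and 3.57% higher. At 2-fold in either direction the counts were 1 (Ggt1) in wild-type and 0 in heterozygous mice, against 1.48% and 1.77% of all genes. Among genes at or above the median level, 1.59% and 1.48% were past 1.5-fold in either direction, and 0 of the 36 antioxidant genes in that class were in either genotype. No antioxidant gene was past 1.5-fold in the same direction in both genotypes, where 1.38% of all genes were.

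In wild-type mice 30 of the 45 genes had a lower level on sucrose than on starch and 15 a higher one, with a median change of -0.05, against a median of 0.00 and 49.9% higher over all genes. In heterozygous mice 23 were higher and 22 lower, with medians of 0.00 for the antioxidant genes and for all genes. Over the alternatives the share higher in wild-type mice on sucrose ran from 30.6% (genes at or above the median level, against 54.3% of all genes in that class) to 40% (quantile normalization, against 51.7% of all genes). The median ran from -0.08 (mean over a gene's probes) to -0.02 (quantile normalization). In the same comparison marker genes of several cell types moved as well. All 7 oligodendrocyte genes were lower on sucrose (sums of 100.7 on starch and 91.5 on sucrose), as were 6 of 8 astrocyte genes (52.7 and 48.2) and 7 of 7 red blood cell genes, while 7 of 7 excitatory neuron genes and 9 of 9 striatal neuron genes were higher. Their part in the changes of the antioxidant genes was not tested.

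The heterozygous genotype gave a similar picture. On starch, 2 of 45 genes were lower by 1.5-fold or more, Ggt1 and Ggt7, and 0 were higher, where 2.48% of all genes were lower and 1.48% higher. On sucrose, 1 of 45, Gpx8, was higher by that much and 0 were lower, where 3.29% of all genes were higher and 1.29% lower. At 2-fold in either direction the counts were 1 (Ggt1) on starch and 0 on sucrose, against 0.813% and 1.71% of all genes. Of genes at or above the median level, 0.862% on starch and 0.978% on sucrose were past 1.5-fold, and of the 36 antioxidant genes in that class Ggt7 was on starch and Gpx8 on sucrose. On both diets in the same direction, 0 of 45 were past 1.5-fold, where 0.32% of all genes were.

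Median genotype changes were -0.03 on starch and -0.01 on sucrose, and the medians over all genes were both -0.02. On starch 16 genes were higher in heterozygous mice and 29 lower, and on sucrose 21 were higher and 24 lower. The share higher was 35.6% and 46.7%, against 46.0% and 45.1% of all genes. These shares moved with the scaling, which also moves all genes. On sucrose 31.1% of the antioxidant genes were higher with each array's median as the scale and 60% with quantile normalization, against 34% and 47.1% of all genes. On starch the share ran from 28.9% with the mean over a gene's probes, against 45.7% of all genes, to 46.7% with quantile normalization, against 49.8%. The median on starch was -0.08 and -0.02 at those settings. The diet and genotype comparisons share arrays in pairs, so their values are not independent of each other. Marker genes moved with genotype as well. On starch, 7 of 7 red blood cell, 5 of 5 ependyma and 7 of 8 microglial genes were lower in heterozygous mice. There 8 of 9 striatal neuron genes were higher. On sucrose, 9 of 9 choroid plexus, 5 of 5 ependyma and 7 of 7 red blood cell genes were higher. There 9 of 9 striatal neuron and 7 of 8 microglial genes were lower. Their part in the changes of the antioxidant genes was not tested.

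The change from starch to sucrose differed between genotypes by 1 or more on the log2 scale for 1 of 45 genes, Ggt1, where 2.88% of all genes differed by that much. With normexp background correction the difference for Ggt1 was 0.57 in place of 1.16, and 0 of 45 genes reached 1. Diet changes of opposite sign in the genotypes that lay 1.5-fold or more apart were found for 2 of 45, Ggt1 and Gpx8, where 5.87% of all genes had them. The median of this difference, heterozygous minus wild-type, was 0.04 for the antioxidant genes and 0.00 for all genes. For the antioxidant genes it ran from 0.008 with each array's median as the scale to 0.06 with the mean over a gene's probes.

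**Figure D3:**
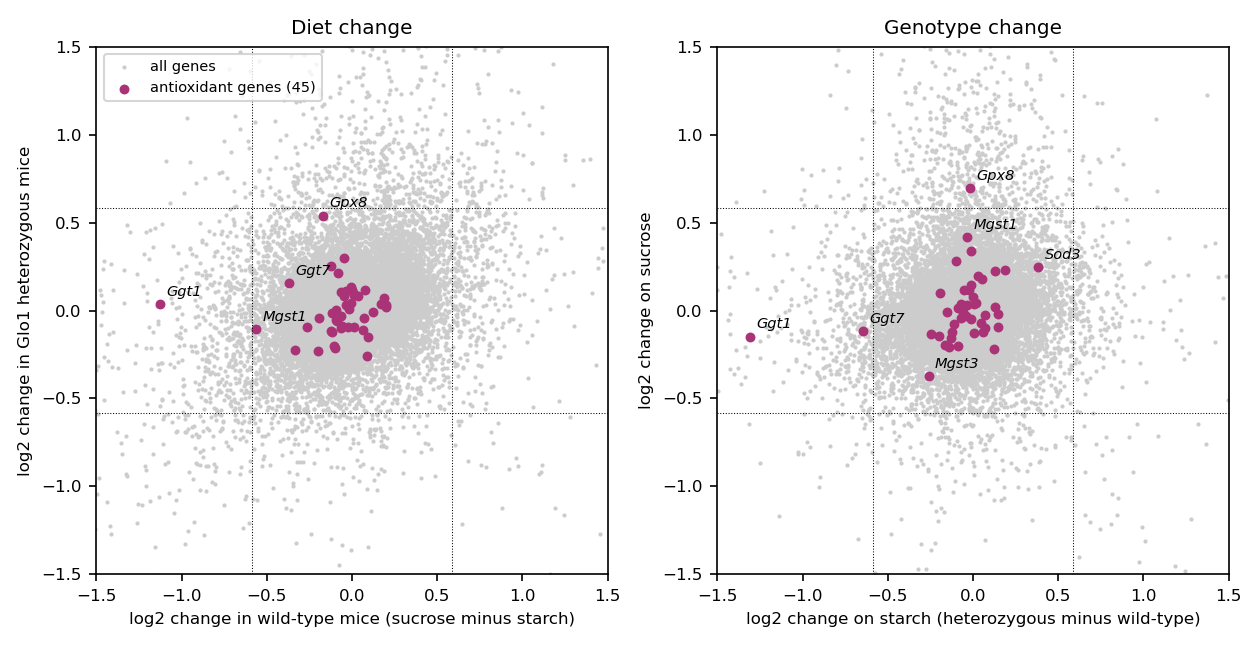
Left, log2 diet change (sucrose minus starch) of each gene in wild-type mice against that in Glo1 heterozygous mice; right, log2 genotype change (heterozygous minus wild-type) on starch against that on sucrose. Grey points are all genes within the axes, coloured points the 45 antioxidant genes and dotted lines 1.5-fold, which Ggt1 passes in both panels and Ggt7 and Gpx8 in the right one.

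A smaller size for counting, 0.32 on the log2 scale, shows which genes came next. In wild-type mice on sucrose, Ggt7, Mgst1 and Nfe2l2 joined Ggt1 on the lower side, 4 of 45 where 10.3% of all genes were, and 0 were on the higher side where 8.96% were. In heterozygous mice on sucrose, Gpx8 was the 1 gene higher and 0 were lower, where 9.29% and 6.46% of all genes were. In heterozygous mice on starch, Sod3 was the 1 gene higher, where 5.86% were, and Ggt1 and Ggt7 the 2 lower, where 9.03% were. In heterozygous mice on sucrose against wild-type mice on sucrose, Gpx8, Mgst1 and Nqo1 were the 3 higher, where 7.91% were, and Mgst3 the 1 lower, where 5.72% were.

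Among the 21 antioxidant genes in the brightest quartile, changes were also counted beyond 0.14. That is 2 SD of the log2 difference between repeated single spots of an array, so it covers spot error alone. Such a change was seen for 2 of 21 in wild-type mice on sucrose, where 36.4% of all brightest-quartile genes were beyond it. It was seen for 5 of 21 in heterozygous mice on sucrose, where 23.6% were, for 6 of 21 in the genotype comparison on starch, where 27.9% were, and for 7 of 21 on sucrose, where 26.3% were. Of those, 1 of 2, 5 of 5, 5 of 6 and 6 of 7 were lower, and of all brightest-quartile genes beyond the limit 39.4%, 65.7%, 52.0% and 78.2% were lower in the same comparisons. Gpx1 was among them in all 4 comparisons and Mgst3 in 3.

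On their brightest probes, genes of glutathione synthesis and recycling had similar levels in all groups. Gclc, the catalytic subunit of the enzyme that makes the first bond of glutathione, had levels of 3.24 on wild-type starch, 3.72 on wild-type sucrose, 3.37 on heterozygous starch and 3.41 on heterozygous sucrose, which is a diet change of 0.20 in wild-type mice and 0.02 in heterozygous ones. Its partner Gclm, the modifier subunit, had 3.13, 2.93, 2.89 and 2.79 in the same order, with changes between -0.11 and -0.05. In Gclc the wild-type sucrose array was the highest, and in Gclm the wild-type starch array was. Gss, which completes glutathione, had levels of 1.99, 1.92, 2.06 and 2.18. A dimmer second probe of Gss gave diet changes of -0.25 and 0.27 and genotype changes of -0.20 and 0.32. Gsr, glutathione reductase, had 2.90, 3.16, 2.91 and 2.90, with the wild-type sucrose array highest and the other three nearly equal. Slc7a11, the cystine carrier that supplies cysteine, had 0.525, 0.529, 0.573 and 0.537, with changes from -0.10 to 0.13. A probe of Slc7a11 in the dimmest quartile gave genotype changes of 0.50 and 0.35, and another dimmer probe gave -0.04 and -0.19.

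Both gamma-glutamyltransferases of the list, Ggt1 and Ggt7, were highest on the wild-type starch array. Their relatives outside the list, Ggt5 and Ggt6, were instead highest on the heterozygous sucrose array (0.0759 and 0.0348), both in the dimmest quartile. Ggt1 cleaves glutathione outside the cell, and its probe (mm9 chr10:75048435-75048670) had levels of 0.0487, 0.0223, 0.0196 and 0.0201. The wild-type starch array stood alone and the other three were close together, so that sucrose was 2.18-fold lower than starch in wild-type mice (log2 -1.13) and heterozygous 2.48-fold lower than wild-type on starch (-1.31). The changes with no wild-type starch array were 0.04 and -0.15. Ggt1 is the 1 gene of the 45 in the dimmest quartile, and with normexp background correction its changes shrank to -0.59 and -0.60, just past 1.5-fold.

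Ggt7 is a relative of Ggt1 that is expressed in brain, and its probe (mm9 chr2:155316348-155316407) lay among the bright ones. Levels were 3.48 on wild-type starch, 2.69 on wild-type sucrose, 2.22 on heterozygous starch and 2.48 on heterozygous sucrose. Again the wild-type starch array was the highest, and the change was -0.37 with sucrose in wild-type mice and -0.64, 1.56-fold lower, with the heterozygous genotype on starch. The diet change in heterozygous mice was 0.16 and the genotype change on sucrose was -0.12. Each of these genes had 1 measured probe, and both results rest on the same wild-type starch array. That array also had the highest red blood cell sum, 277 against 135 to 235, with all 7 of those genes highest there. The sum of 7 endothelial genes was 31.7 against 23.4 to 28.4, with 3 of the 7 highest there. That of 8 microglial genes was 69.1 against 64.7 to 67.3, with 5 of the 8 highest there, and that of the 7 excitatory neuron genes was the lowest of the arrays, 62.7 against 78.8 to 86.0. Their part in the levels of Ggt1 and Ggt7 was not tested.

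**Figure D4:**
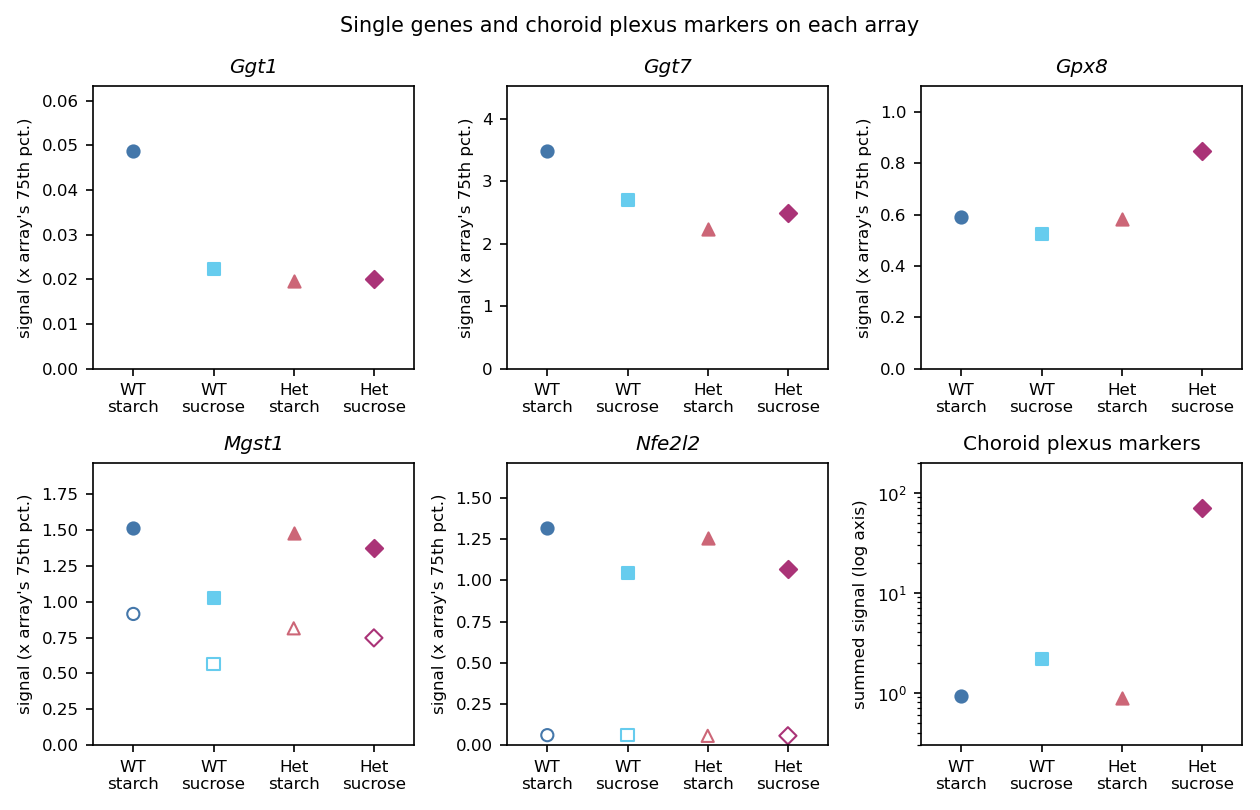
Levels on each array (WT, wild-type; Het, Glo1 heterozygous) as multiples of the array's 75th percentile, for Ggt1, Ggt7, Gpx8, Mgst1 and Nfe2l2 and, on a log axis in the last panel, the summed level of 9 choroid plexus marker genes. Filled symbols are the brightest probe and open symbols another probe of the gene. Ggt1 and Ggt7 are highest in WT starch (0.0487 and 3.48), and Gpx8 and the choroid plexus sum in Het sucrose (0.848 and 70.7).

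Of the 5 glutathione peroxidases, Gpx1 and Gpx8 moved in different ways. Gpx1, the abundant peroxidase of cytosol and mitochondria, had levels of 11, 9.6, 9.83 and 8.38. It was lower with sucrose in both genotypes (-0.20 and -0.23) and lower in heterozygous mice on both diets (-0.17 and -0.20), so that the heterozygous sucrose array was the lowest and the wild-type starch array the highest. Gpx4, which reduces lipid peroxides in membranes, had 28.2, 27.7, 25.6 and 24.0, with diet changes of -0.02 and -0.09 and genotype changes of -0.14 and -0.21. As in Gpx1, the wild-type starch array was the highest and the heterozygous sucrose array the lowest.

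Gpx8, a peroxidase of the endoplasmic reticulum, had levels of 0.589, 0.523, 0.583 and 0.848 (probe at mm9 chr13:113833213-113833272). The heterozygous sucrose array was high and the other three were alike. Its change was 0.70 with genotype on sucrose (1.62-fold higher) and 0.54 with diet in heterozygous mice (1.45-fold), against -0.02 with genotype on starch and -0.17 with diet in wild-type mice. The same array had the highest choroid plexus sum, 70.7, with all 9 of its genes higher there than on the heterozygous starch and the wild-type sucrose arrays. It also had the highest sum of 5 ependyma genes (2.62, against 0.985 to 1.27), with 5 of 5 highest there. The sum of 8 meningeal fibroblast genes was 12.8 there, against 9.86 to 10.7, with 4 of 8 highest there, Dcn (5.19, against 2.69 to 2.95) adding most to it. Their part in the level of Gpx8 was not tested. Gpx3, the secreted peroxidase, had levels of 0.189 to 0.204, and Gpx7, a further peroxidase of the endoplasmic reticulum, had 0.336 to 0.344, with a highest-to-lowest ratio of 1.02.

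The 12 glutathione transferases had median changes of -0.09 and 0.02 with diet (wild-type, heterozygous) and -0.04 and 0.09 with genotype (starch, sucrose). Of the 12, 0 had a highest array 1.5-fold or more above the lowest, where 14.7% of all genes and 4.09% of those at or above the median level did. Mgst1, a transferase of the outer mitochondrial membrane and the endoplasmic reticulum, came nearest. Its levels were 1.52, 1.03, 1.48 and 1.37, lowest on the wild-type sucrose array. Sucrose gave a change of -0.56 in wild-type mice and -0.11 in heterozygous mice, and genotype gave -0.03 on starch and 0.42 on sucrose. A second probe nearby on chromosome 6 had 0.914, 0.564, 0.814 and 0.747, with the same array lowest and a change of -0.70 in wild-type mice. Averaged over both probes Mgst1 was past 1.5-fold lower with sucrose in wild-type mice (-0.63). The wild-type sucrose array also had the lowest sums of 7 red blood cell genes (135), 7 oligodendrocyte genes (91.5, against 95.5 to 102), 5 ependyma genes (0.985, against 1.03 to 2.62) and 5 melanocyte genes (0.240, against 0.320 to 1.45). It had the highest sums of excitatory neuron genes (86.0, with 4 of 7 highest there) and striatal neuron genes (47.4, with 8 of 9). Their part in the level of Mgst1 was not tested.

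Mgst3, a further membrane-bound transferase, had levels of 4.13, 3.85, 3.44 and 2.97. Both diet changes (-0.10 and -0.21) and both genotype changes (-0.26 and -0.37) were below 0, and the heterozygous sucrose array was the lowest. A dimmer second probe of Mgst3 gave changes of -0.10, 0.03, -0.16 and -0.03 in that order, so these differences depend on the probe. Gstk1, a mitochondrial and peroxisomal transferase, had 2.21, 1.84, 2.25 and 2.11, with diet changes of -0.27 and -0.10. Gstt1 had 3.39, 3.12, 3.12 and 2.87, with a change of -0.12 in each of the 4 comparisons.

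Some genes of the mu class had small genotype changes above 0. Gstm1 had levels of 12.5, 11.8, 13.7 and 13.8, with genotype changes of 0.13 and 0.23, and Gstm2 had 0.518, 0.547, 0.591 and 0.641, with genotype changes of 0.19 and 0.23. In both genes the heterozygous arrays were above the wild-type arrays. Gstm5 had 31.1, 29.3, 29.6 and 28.5, with changes from -0.09 to -0.04, and Gstm7 had 0.192, 0.176, 0.179 and 0.213, highest on the heterozygous sucrose array. Mu-class genes are close copies of each other, and the files place the brighter Gstm1 probe on chromosome 5 and another one on chromosome 3, so the signal of a single mu-class gene is uncertain. Gsta3 had 0.234, 0.269, 0.259 and 0.265, with a diet change of 0.20 in wild-type mice and 0.03 in heterozygous ones. Gsta4, Gstp1 and Gsto1 had changes between -0.19 and 0.21, between 0.00 and 0.09, and between -0.05 and 0.09.

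Of the 6 peroxiredoxins, 0 had a log2 range over the 4 arrays of 0.32 or more. Of genes at or above the median level, 80.9% had a range under that size. Prdx5, which lies in mitochondria, peroxisomes and cytosol, had levels of 40.0, 39.6, 40.4 and 40.7, a highest-to-lowest ratio of 1.03. Prdx1 and Prdx2, both cytosolic, had 24.5, 22.6, 23.0 and 22.8, and 15.0, 13.8, 14.6 and 13.5. Prdx2 was lower on sucrose than on starch in both genotypes, by -0.12 and -0.11 on the log2 scale. Prdx6, which also reduces phospholipid peroxides, had 37.9, 35.2, 39.7 and 34.5, and was lower on sucrose in both genotypes (-0.11 and -0.20). Mitochondrial Prdx3 had 3.34, 3.51, 3.14 and 3.05, and Prdx4 of the endoplasmic reticulum had 1.49, 1.48, 1.29 and 1.33, both lower in heterozygous mice on both diets. The diet changes of a second Prdx4 probe differed from these by 0.54 and 0.51. Srxn1, sulfiredoxin, which restores over-oxidised peroxiredoxins, had 10.8, 11.5, 11.8 and 9.87, with a diet change of 0.09 in wild-type mice and -0.26 in heterozygous mice.

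The thioredoxin system had the narrowest range of any role with more than 1 gene: the median ratio of highest to lowest array over its 5 genes was 1.08. Txn1, the cytosolic thioredoxin, had levels of 8.70, 8.91, 8.34 and 8.85, and Txn2, the mitochondrial one, had 21.7, 20.7, 21.4 and 20.0. Txnrd1, the cytosolic reductase, had 3.26, 3.12, 3.27 and 3.19. All 3 had changes within 0.10 of 0. Txnrd2, the mitochondrial reductase, had 2.58, 2.94, 2.66 and 2.80, with a diet change of 0.19 in wild-type mice and 0.07 in heterozygous mice. A dimmer probe of Txnrd2 instead gave -0.67 with diet in wild-type mice and -0.90 with genotype on starch, and it was highest on the wild-type starch array as Ggt1 and Ggt7 were. Txnip binds thioredoxin and is known to be induced by glucose. Its levels were 1.88, 1.80, 1.81 and 1.95, a diet change of -0.07 in wild-type mice and of 0.10 in heterozygous mice.

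Of the superoxide dismutases, Sod1, the cytosolic enzyme, had levels of 46.4, 44.6, 42.5 and 40.0, with diet changes of -0.06 and -0.09 and genotype changes of -0.13 and -0.16. A dim second probe gave genotype changes of 0.42 and 0.05. Mitochondrial Sod2 had 3.90, 4.16, 4.33 and 3.90, with a diet change of 0.09 in wild-type mice and one of -0.15 in heterozygous mice. Sod3, the secreted enzyme, had 1.33, 1.5, 1.74 and 1.78, and both heterozygous arrays were above both wild-type arrays. Its genotype changes were 0.38 on starch and 0.25 on sucrose. The sums of 5 melanocyte genes (0.320, 0.240, 1.45 and 0.770) and 8 meningeal fibroblast genes (9.87, 9.86, 10.7 and 12.8) were also higher on both heterozygous arrays. That of 8 microglial genes was lower on both (69.1, 67.3, 65.6 and 64.7). Their part in the level of Sod3 was not tested. Cat, catalase, had 0.969, 0.965, 0.951 and 1.04.

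Haem oxygenases and quinone reductase are often read as a sign of NRF2 activity. Hmox1, the inducible haem oxygenase, had levels of 0.490, 0.428, 0.486 and 0.472, lowest on wild-type sucrose, with a diet change of -0.19 in wild-type mice and -0.04 in heterozygous ones. Hmox2, the constitutive form, had 4.45, 4.35, 4 and 4.33. Nqo1, quinone reductase, had 0.132, 0.128, 0.131 and 0.162, high on the heterozygous sucrose array alone, with a diet change of 0.30 in heterozygous mice and a genotype change of 0.34 on sucrose. This is the array with the highest choroid plexus, ependyma and meningeal fibroblast sums given beside Gpx8, and their part in the level of Nqo1 was not tested.

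Nfe2l2, the gene of NRF2, had levels of 1.32, 1.05, 1.26 and 1.07. Both sucrose arrays were below both starch arrays, with a diet change of -0.34 in wild-type mice, one of -0.23 in heterozygous mice, and genotype changes of -0.07 and 0.04. A dim second probe gave diet changes of 0.07 and 0.01, and the average over both probes was -0.13 and -0.11, so both the size and the direction of the change depend on the probe. The red blood cell sum was also lower on both sucrose arrays (135 and 152) than on both starch arrays (277 and 235), with 7 of 7 genes lower in both genotypes. So were the sums of endothelial (23.4 and 23.4, against 31.7 and 28.4), astrocyte (48.2 and 47.7, against 52.7 and 50.9) and oligodendrocyte genes (91.5 and 95.5, against 100.7 and 101.7). Those of excitatory neuron (86.0 and 81.3, against 62.7 and 78.8) and choroid plexus genes (2.18 and 70.7, against 0.933 and 0.882) were higher. Their part in the level of Nfe2l2 was not tested. Keap1, its inhibitor, had 3.97, 3.98, 3.35 and 3.63, with genotype changes of -0.24 on starch and -0.13 on sucrose. Of the NRF2 target genes in the list named so far, Gclc, Gclm, Gsr, Srxn1, Txnrd1, Slc7a11, Hmox1 and Nqo1, 0 had a highest array 1.5-fold or more above the lowest. Of genes at or above the median level 4.09%, and of all genes 14.7%, had one.

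NRF2 binds with small MAF proteins to the antioxidant response element, whose core is TGACNNNGC. This core was searched on both strands in the RefSeq windows (GRCm38.p6) from 250 bases before to 50 bases after each start site. It was present in 11 of the 39 antioxidant genes that have a window (28.2%), in 25% of their 52 windows, in 12.4% of all 32851 windows, and in 15.9% of the measured genes that have a window. The 11 genes were Gclm, Ggt1, Gsta3, Gstm5, Gstm7, Mgst1, Nfe2l2, Prdx1, Sod1, Srxn1 and Txnrd1. The stretches below, which lie before the start site of 4 of these genes with different roles, show the core in capitals. They are read 5′ to 3′ on the strand of the gene, so a core on the other strand appears as its reverse complement, as in Prdx1, Gclm and Mgst1. They lie at chr4:116685441-116685499 (plus strand, Prdx1), chr3:122245398-122245456 (plus, Gclm), chr6:138140446-138140504 (plus, Mgst1) and chr2:75704870-75704913 (minus, Nfe2l2).
Prdx1: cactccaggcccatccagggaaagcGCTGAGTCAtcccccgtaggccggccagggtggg
Gclm: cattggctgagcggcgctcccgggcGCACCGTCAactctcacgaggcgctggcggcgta
Mgst1: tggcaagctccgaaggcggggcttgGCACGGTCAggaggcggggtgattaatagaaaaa
Nfe2l2: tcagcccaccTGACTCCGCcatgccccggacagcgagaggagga

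Genes with and without the core had similar ranges. The median ratio of highest to lowest array was 1.16 for the 11 genes with it and 1.14 for the 28 without it. Median diet changes were -0.09 with and -0.03 without the core in wild-type mice, and -0.05 with and 0.04 without it in heterozygous mice. Median genotype changes were -0.07 with and -0.03 without it on starch, and -0.02 with and -0.01 without it on sucrose. A match is a stretch of letters in a window and no measurement of binding. Bases outside the windows were not searched, so a gene without the core here may still have one elsewhere.

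Other genes of these pathways were taken from 6 lists of 88 genes in all, of which 83 were measured: further glutathione enzymes (14 measured), further transferases (13), cysteine supply (9), thioredoxin-fold and repair genes (17), NADPH supply (10), and partners and targets of NRF2 (20). In wild-type mice, 0 of 83 were past 1.5-fold with sucrose in either direction. In heterozygous mice 1 was higher with sucrose, Gstm6 (0.59). With the heterozygous genotype 1 was higher on starch, Gsta2 (1.37), and 2 were higher on sucrose, Gsta2 (1.23) and Gstm6 (0.61), and 0 were lower on either diet. The share of all genes past 1.5-fold in each of these comparisons is the one given above for the antioxidant genes. Median changes of the 83 genes were 0.02 and -0.01 with diet and -0.02 and -0.03 with genotype.

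Both are transferases. Gsta2, of the alpha class, had levels of 0.0143, 0.0110, 0.0370 and 0.0258, in the dimmest quartile, with both heterozygous arrays above both wild-type arrays. The summed level of 5 melanocyte genes was 0.320, 0.240, 1.45 and 0.770, with 4 of the 5 higher in heterozygous mice on both diets, and its part in the level of Gsta2 was not tested. Gsta1, its close copy, was not measured on all 4 arrays. Gstm6, of the mu class, had 0.665, 0.566, 0.574 and 0.865, and like Gpx8 was high on the heterozygous sucrose array alone, the one with the choroid plexus sum of 70.7 and the highest ependyma and meningeal fibroblast sums. Their part in the level of Gstm6 was not tested.

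Further probes of a gene often gave other small changes. The 20 antioxidant genes with more than 1 measured probe had 25 further probes, of which 19 and 18 had the sign of the brightest probe in the diet comparisons (wild-type, heterozygous) and 17 and 17 in the genotype comparisons (starch, sucrose). Their median difference from the brightest probe was 0.10 and 0.05 for diet and 0.13 and 0.07 for genotype. The median size of the 45 genes' own changes was 0.09 and 0.10 for diet and 0.07 and 0.12 for genotype. The largest differences were 0.86 for Txnrd2, 0.51 for Prdx4, 0.95 for Txnrd2 and 0.70 for Prdx1, in the same order.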

How the data were processed

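Prefrontal cortex RNA of 4 groups was measured on 1 array each. The deposited intensity values were made with Agilent Feature Extraction 11.5.1.1 (per the submitters' processing notes), with background subtraction and detrending per the file headers. The series matrix held a ratio for each spot, which the authors had deposited as processed signal over the array's 75th percentile. That was checked against the scanner values. Probe coordinates are those of the files, on mm9, and exon or UTR annotation was not used here.

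Processed signals were divided by the 75th percentile of all non-control spots on their array and put on a log2 scale in Python 3.11.15. Control spots and outlier spots were left out, spots of a probe were averaged, and 42094 of 56605 probes were well above background on all 4 arrays. The arrays lay on 1 slide, so position and group cannot be told apart. With 1 array a group, changes are differences between arrays, counted at 1.5-fold. Alternatives were median and quantile scaling, normexp with an offset of 50 (limma 3.58.1), the mean over probes, other filters, outlier spots kept, the matrix values, and a threshold of 2-fold or of 0.32 on the log2 scale.

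All 45 genes are accounted for. Values on every array were planned for genes past 1.5-fold or with an interaction of 1 or more, the 5 highest and 5 lowest mean diet and genotype changes, and a fixed group of key genes. The genes and lists were chosen with earlier results of these data known. RefSeq (GRCm38.p6) symbols matched all 45.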

Additional observations from a re-analysis of the deposited data

Results flagged for a closer look

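For 2 antioxidant genes the diet change had opposite signs in the genotypes and differed by more than 1.5-fold between them, as it did for 5.87% of all genes. Ggt1 had a diet change of -1.13 in wild-type mice and of 0.04 in heterozygous mice, a difference of 1.16 on the log2 scale. Gpx8 had -0.17 and 0.54, a difference of 0.71. With 1 array per group neither difference was tested, and each rests on 1 array, that of wild-type starch for Ggt1 and that of heterozygous sucrose for Gpx8. For Ggt1 the pattern depends on the setting: with normexp background correction its diet changes were -0.59 and -0.02, of one sign and 0.57 apart, which is under 1.5-fold, and with quantile normalization they were -1.12 and -0.03. For Gpx8 the difference was 0.63 with normexp.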

How the results depend on the processing

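With the mean over a gene's probes, 2 genes were past 1.5-fold with sucrose in wild-type mice (Ggt1 and Mgst1) in place of 1. Among genes at or above the median level that count was 0, and the genotype count on starch was 1, since Ggt1 is not among those genes. At 2-fold the genotype counts were 1 on starch and 0 on sucrose. At a log2 change of 0.32 the counts were 4 and 1 for diet (wild-type, heterozygous) and 3 and 4 for genotype (starch, sucrose). The count of genes whose diet change differed by 1 or more between genotypes, 1 (Ggt1), was recomputed under alternatives chosen after seeing the data: it was 0 with normexp and 0 among genes at or above the median level. The sign of 2 medians depended on the setting: the genotype median on sucrose ran from -0.05 to 0.03 and the diet median in heterozygous mice from -0.02 to 0.02. With each array's median as the scale, which gave both lower ends, the medians of all genes moved too, to -0.06 and -0.03. Of 180 changes (45 genes in 4 comparisons), 136 kept their sign under the alternatives run. Ggt1 lay between -1.13 and -0.59 with diet in wild-type mice and between -1.32 and -0.60 with genotype on starch, smallest with normexp. Ggt7 lay between -0.66 and -0.60 with genotype on starch and Gpx8 between 0.63 and 0.70 with genotype on sucrose. No paired analysis was possible because each group has 1 array. The precision is limited by the number of arrays.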
